A study of Mus musculus with 4 samples.

Results

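The genes described here are Prox1 and 8 other endogenous transcription factors of the liver, Foxa1, Foxa2, Cebpa, Cebpb, Onecut1, Nr5a2, Nr1h4 and Nr0b2. They are the 9 rows, of 55397 genes in the deposited table, that carry these gene names, and none of them is encoded by the 4-in-1 reprogramming virus. Prox1 is the target of the experiment, and no virus used here was directed at the other 8. Of the 9, 3 had no read in any of the 4 libraries, 2 had a handful of reads, and 4 had enough reads to be tested.

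All 4 libraries were made from primary mouse embryonic fibroblasts (MEFs) of C57BL/6J embryos at E13.5 whose Prox1 alleles carry loxP sites (Prox1 fl/fl), and all received 4in1, a lentivirus encoding a set of transcription factors that drives fibroblasts toward induced hepatocytes. By the study's methods, hepatocyte reprogramming also used an rtTA lentivirus, and doxycycline in the medium switched on the transgenes. A further lentivirus, FUW-GFP-Cre, supplied active Cre recombinase to the Prox1 KO-labelled libraries. FUW-GFP-dCre supplied a non-functional ΔCre to the controls. The controls therefore kept wild-type Prox1 function but carried the same floxed alleles. Cells were harvested on day 14, giving 2 libraries per group, and the replicate numbers 1 and 2 join 1 Prox1 KO-labelled library to 1 control. Nothing in the labels restricts Cre to a cell type, MEFs of several embryos were pooled, and each library is RNA of a whole culture. Fewer cells of a type and less RNA per cell can therefore not be told apart.

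PROX1 is the vertebrate relative of the fly factor Prospero. It is a homeobox protein that hepatoblasts, hepatocytes and lymphatic endothelial cells express, and it often acts as a repressor by bringing histone deacetylases and the nucleosome remodelling complex NuRD to its targets. The FOXA proteins are pioneer factors that bind closed chromatin early in liver development. CEBPA sustains the metabolic genes of mature hepatocytes, while its relative CEBPB serves the acute-phase response and is also expressed in fibroblasts. ONECUT1 acts in hepatoblasts and in the biliary lineage. The other members form a circuit of nuclear receptors, in which the bile acid receptor FXR (the product of Nr1h4) induces the small partner SHP (Nr0b2), which in turn restrains bile acid synthesis through LRH-1 (Nr5a2).

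The libraries held between 42469031 and 48524008 reads on genes, and each deposited value is a whole number of reads divided by a size factor between 0.939 and 1.09. The test, limma on log2(normalized counts + 1) with the replicate number as a block and Benjamini-Hochberg adjustment, took in the 15809 genes that averaged 10 or more normalized counts. On this scale a change appears smaller than it is where reads are few. In all, 11.4% of the tested genes passed an adjusted p of 0.05, 5.09% with higher and 6.29% with lower values in the Prox1 KO-labelled libraries. Whether same-numbered libraries share a MEF line is not stated in the labels, and without the block 0 genes passed. Nothing in the labels says how the libraries of a group relate to separate cultures, so the p-values measure only the spread between these libraries, which may be technical.

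Prox1 is the gene that Cre was meant to inactivate. It lies on the minus strand of chromosome 1 (ENSMUSG00000010175, chr1:190118035-190170714, GRCm38). According to the study's source data, Cre removes the first coding exon. This exon, numbered 2, spans chr1:190160522-190162313. It is 1792 bases long and holds 1725 of the 2211 coding bases, the start codon among them, which leaves 486 coding bases downstream. The first 60 bases of the coding sequence, all inside exon 2 at chr1:190162187-190162246 on the minus strand, are shown because their loss is what the genotype label stands for, with the start codon in capitals.
Prox1 coding start: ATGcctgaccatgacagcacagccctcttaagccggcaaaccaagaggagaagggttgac

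**Figure D1:**
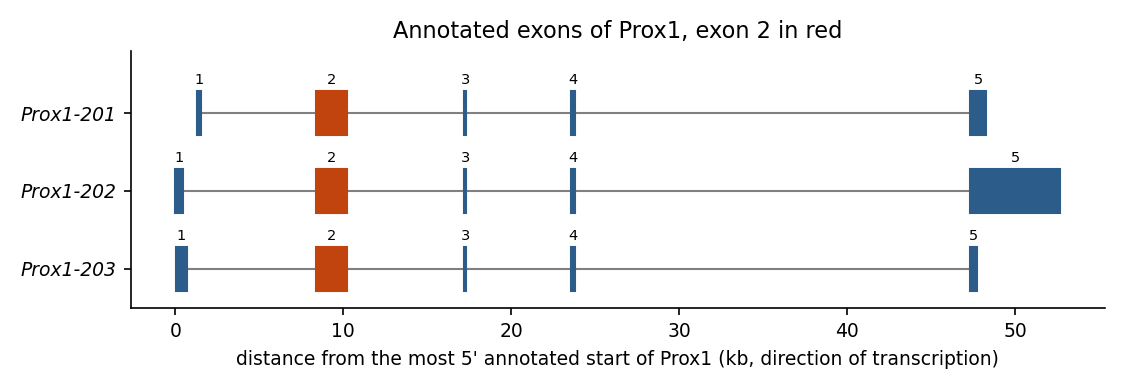
Exons of the 3 annotated Prox1 transcripts (GENCODE vM21), drawn to scale in kb from the most 5' start, with exon numbers above the boxes. Exon 2 (red) has the same bounds in all 3 transcripts, and exon 5 of the longest transcript, with 5371 bases, makes up most of that transcript.

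Counted over the whole gene, Prox1 was not lower in the Prox1 KO-labelled libraries. In replicate 1 it had 72.7 normalized counts in the Prox1 KO-labelled library and 60.6 in the control, which rest on 70 and 66 reads. In replicate 2 it had 61.6 and 25.5, from 63 and 24 reads. Both Prox1 KO-labelled libraries thus lay above both controls, and the control of replicate 2 stood apart as the lowest of the 4. Group means were 67.2 ± 7.89 and 43.1 ± 24.8 normalized counts (SD, n = 2 each). The log2 fold change was 0.75 (standard error 0.27, 95% confidence interval 0.17 to 1.32), and its adjusted p of 0.0936 from limma did not pass the threshold.

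The size of the Prox1 difference was set mainly by replicate 2. Within replicate 1 the Prox1 KO-labelled library had 1.20 times the control's level, with a 95% interval of 0.845 to 1.71 for counting error alone that includes equality. Within replicate 2 the ratio was 2.41, with an interval of 1.48 to 4.03. Exon 2 makes up 21.4% of the 8390 annotated exonic bases of the gene, but between 22.6% and 57.0% of the single transcripts. If reads were spread evenly over the 8390 bases, a loss of every exon 2 read would by itself shift the count by -0.35 on the log2 scale. The measured difference is the net of any such loss and any change in transcript level, which cannot be told apart here. The deposited values are 1 number per gene and do not say in which exon a read fell. The deletion was therefore not observed in these values, and every direction given here rests on the labels of the libraries.

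Overlapping genes add little to the Prox1 count. Its antisense gene Prox1os shares 133 exonic bases with it and had 1 read, in the Prox1 KO-labelled library of replicate 2, while a second antisense gene in the locus, Gm28172, shares no exonic base and had 0 reads in all 4 libraries. Of the 100-base windows of the longest Prox1 transcript, 0.435% also occur in another gene.

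The 3 tested genes nearest to Prox1 in pattern, by Euclidean distance over the 4 centred log2 values, were Med12l, Rps15a-ps4 and Bnc1. Med12l, related to a subunit of the Mediator kinase module, was at a distance of 0.137 with 55.1 and 41.1 normalized counts in the Prox1 KO-labelled libraries and 41.3 and 18.1 in the controls, but 17.0% of its windows also occur in Igsf10. The pseudogene Rps15a-ps4, also at 0.137, shares windows with Rps15a and 3 other pseudogenes, so its reads are uncertain. Bnc1, which encodes the zinc finger protein basonuclin, was at 0.214. None of the 3 passed the threshold (adjusted p = 0.113, 0.420 and 0.179 from limma), and a distance over 4 values is a description of these libraries.

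Levels of the 9 genes spanned several orders of magnitude. Levels are compared per length, as RPKM (reads scaled by exonic length and by the total of the library). The order was Cebpb, Cebpa, Nr1h4, Prox1, Foxa2, Foxa1, and then the 3 genes without a read. Cebpb had a mean level of 26.4 RPKM (23.5 to 28.5 over the 4 libraries), above 91.8% of the protein-coding genes in the table. Cebpa followed at 4.26 RPKM (3.86 to 4.66), above 66.5% of them. Nr1h4 had 0.415 RPKM (0.293 to 0.591) and Prox1 0.147 RPKM (0.0674 to 0.194), above 45.6% and 39.8% of protein-coding genes, many of which had few or no reads. Each of these 4 was separated from its neighbours in the order, with no overlap over the libraries. The order of Nr1h4 and Prox1 depends on the length used, here 2303 exonic bases for Nr1h4 and 8390 for Prox1. Prox1 had more reads (223 against 174), and its annotated transcripts range from 3144 to 7913 bases. Which transcripts were present is not known, so these 2 genes cannot be ordered with certainty. Foxa2, at 0.0285 RPKM (0.00917 to 0.0491), and Foxa1, at 0.0101 RPKM (0 to 0.0142), overlapped and could not be ordered.

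**Figure D2:**
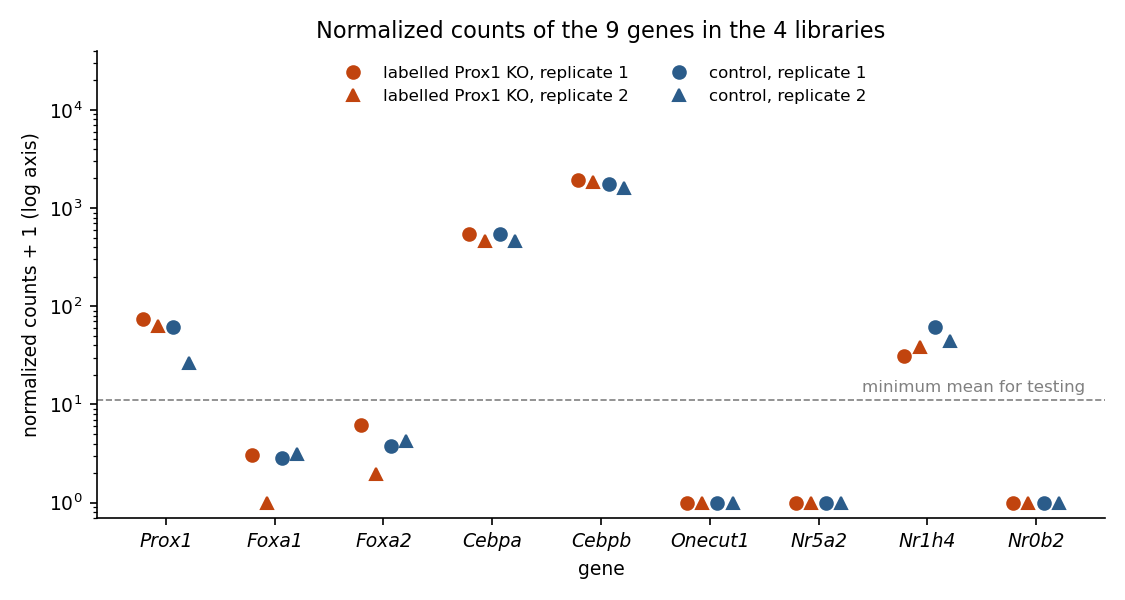
Normalized counts plus 1 on a log axis for the 9 genes, with 1 point per library (red, labelled Prox1 KO; blue, control; circles, replicate 1; triangles, replicate 2) and a dashed line at the minimum mean of 10 normalized counts for testing. Prox1, Cebpa, Cebpb and Nr1h4 lie above the line in every library, Foxa1 and Foxa2 below it, and Onecut1, Nr5a2 and Nr0b2 at 0 normalized counts throughout.

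None of the 4 tested members passed an adjusted p of 0.05 in limma, where 11.4% of all tested genes did. Count tests with the same block, edgeR's quasi-likelihood test and the DESeq2 Wald test, also called 0 of them. At an unadjusted p under 0.05 there were 3 of the 4 in limma (Prox1, Cebpb and Nr1h4), against 23.7% of all tested genes. The groups did not overlap for the same 3 genes, Prox1 and Cebpb with higher and Nr1h4 with lower values in the Prox1 KO-labelled libraries, and 44.4% of all tested genes had groups that did not overlap. The smallest two-sided p that an exact permutation test allows with 2 libraries a group is 0.333.

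The 2 FOXA genes were near the limit of detection in both groups. Foxa1 (ENSMUSG00000035451, chr12:57540628-57546916, GRCm38, minus strand) had 2 and 0 reads in the Prox1 KO-labelled libraries and 2 and 2 in the controls. Foxa2 (ENSMUSG00000037025, chr2:148042877-148046969, GRCm38, minus strand) had 5 and 1 reads in the Prox1 KO-labelled libraries and 3 and 3 in the controls. With so few reads the groups overlapped for both genes, no difference was detectable for either gene at this depth, and no fold change is given.

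Cebpa had the smallest difference of the 4 tested members. The gene (ENSMUSG00000034957, chr7:35119293-35121928, GRCm38, plus strand) had 548 and 464 normalized counts in the Prox1 KO-labelled libraries and 541 and 459.9 in the controls. Replicate 1 was above replicate 2 in both groups, and within each pair the libraries were nearly equal, with log2 ratios of 0.02 and 0.01. The fitted log2 fold change was 0.02 (95% confidence interval -0.17 to 0.20, adjusted p = 0.938 from limma), and the interval bounds the difference on both sides. An antisense gene, Gm45091, shares 51 exonic bases with Cebpa and had between 6.24 and 13.8 normalized counts.

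Cebpb (ENSMUSG00000056501, chr2:167688915-167690418, GRCm38, plus strand) had 1915 and 1851 normalized counts in the Prox1 KO-labelled libraries and 1765 and 1599 in the controls. Both Prox1 KO-labelled libraries were above both controls, by little. Means were 1883 ± 45.2 and 1682 ± 118 normalized counts (SD, n = 2 each). The fitted fold was 1.12, or 0.16 as log2 fold change (standard error 0.05, 95% confidence interval 0.05 to 0.28), with an adjusted p of 0.0635 from limma. Within pairs the log2 ratio was 0.12 (95% counting interval 0.02 to 0.21) and 0.21 (0.11 to 0.31). Tmem189 lies on the opposite strand and shares 312 exonic bases, and 15.2% of the windows of Cebpb also occur in it. Tmem189 had 2024 and 2020.5 normalized counts in the Prox1 KO-labelled libraries and 1880.1 and 2074 in the controls. The library protocol marks strand, but whether the counting used it is not given in the sources used here, so reads of the shared bases cannot be assigned with certainty.

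**Figure D3:**
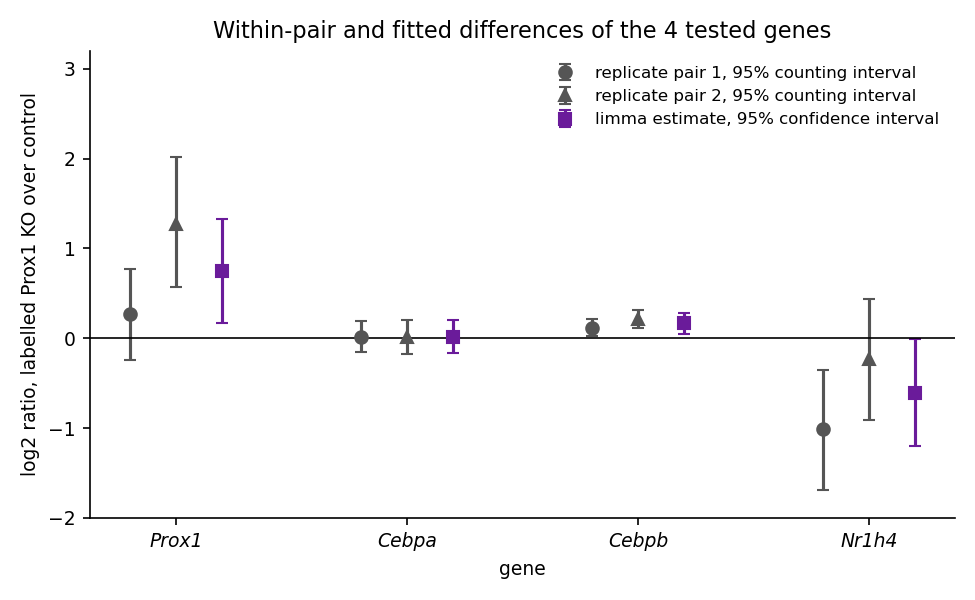
Log2 ratio of the Prox1 KO-labelled library over the control for the 4 tested genes, with each replicate pair in grey (95% counting interval) and the limma estimate in purple (95% confidence interval). Prox1 and Cebpb lie above 0, Nr1h4 below it and Cebpa at it, and the pairs differ most for Prox1 and Nr1h4.

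Nr1h4 was the only nuclear receptor of the bile acid circuit with reads. The gene (ENSMUSG00000047638, chr10:89454234-89533585, GRCm38, minus strand) had 30.1 and 37.1 normalized counts in the Prox1 KO-labelled libraries and 60.6 and 43.6 in the controls, from 29, 38, 66 and 41 reads. Both Prox1 KO-labelled libraries were below both controls. Means were 33.6 ± 4.96 and 52.1 ± 12.0 normalized counts (SD, n = 2 each). The fitted log2 fold change was -0.61 (standard error 0.28, 95% confidence interval -1.20 to -0.0093). The adjusted p of 0.203 from limma did not pass. The pairs differed here too, with a log2 ratio of -1.01 in replicate 1 (95% counting interval -1.69 to -0.36) and -0.23 in replicate 2 (-0.91 to 0.44).

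Onecut1, Nr5a2 and Nr0b2 had 0 reads in each of the 4 libraries. A count of 0 allows up to 3 reads, which sets the level that could have been missed. For Onecut1 (ENSMUSG00000043013, chr9:74861921-74891781, GRCm38, plus strand) this is 0.0150 to 0.0172 RPKM in a single library. For Nr5a2 (ENSMUSG00000026398, chr1:136842571-136960448, GRCm38, minus strand) it is 0.0105 to 0.0120 RPKM. The shorter Nr0b2 (ENSMUSG00000037583, chr4:133553376-133556536, GRCm38, plus strand) could have been missed at up to 0.0546 to 0.0624 RPKM. Over the 179947776 reads of all 4 libraries together the limits are 0.00405, 0.00283 and 0.0147 RPKM in the same order. These limits cover counting error only. Of the windows of Onecut1, 53.7% also occur in the overlapping long intergenic RNA Gm20649, which shares 2171 exonic bases on the same strand and also had 0 reads, so the count of Onecut1 is uncertain where the annotations overlap.

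The promoters of the members ranged from CpG-dense to CpG-poor, and the letters TATAAA occurred in promoters of both kinds. RefSeq (GRCm38.p6) lists 13 start sites for the 9 genes. In the 250 bases before the start, Cebpb had 41 CpG dinucleotides, more than 98.9% of the 32851 promoters in the table. Onecut1 had 31, Cebpa 22 and the starts of Prox1 20 and 11. Nr1h4 had 5, Nr0b2 3 and the starts of Nr5a2 6 and 2, against a median of 6. The only start listed for Nr1h4, preceded by chr10:89506659-89506778, lies inside the gene bounds given above and not at their 5′ end. The 120 bases before the start are shown, 5′ to 3′, for Cebpb and Cebpa, the most abundant members, and for Onecut1 and Nr0b2, without reads, since a CpG-dense promoter stood before both Cebpb and Onecut1. Capitals mark a TATA box (TATAAA) or an SP1 GC box (GGGCGG) on either strand.
Cebpb, chr2:167688795-167688914, plus strand: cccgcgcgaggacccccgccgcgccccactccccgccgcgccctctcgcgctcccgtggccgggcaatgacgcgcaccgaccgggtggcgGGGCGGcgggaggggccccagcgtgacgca
Cebpa, chr7:35119173-35119292, plus strand: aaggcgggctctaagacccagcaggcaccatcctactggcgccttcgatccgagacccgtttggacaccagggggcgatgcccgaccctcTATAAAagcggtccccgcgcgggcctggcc
Onecut1, chr9:74861801-74861920, plus strand: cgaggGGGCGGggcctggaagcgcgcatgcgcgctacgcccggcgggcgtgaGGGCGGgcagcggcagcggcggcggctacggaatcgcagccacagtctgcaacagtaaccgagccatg
Nr0b2, chr4:133553256-133553375, plus strand: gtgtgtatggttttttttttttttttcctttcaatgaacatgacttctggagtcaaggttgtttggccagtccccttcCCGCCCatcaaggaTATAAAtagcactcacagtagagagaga

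TATAAA was found in 5 of the 13 member windows of 250 bases and in 12.4% of all promoters, and GGGCGG in 8 windows and 32.7% of promoters. CCAAT occurred in 3 windows (33.8% of promoters), the nuclear receptor half-site AGGTCA in 2 (14.0%), the FOXA motif TGTTTAC in 1, at Foxa1 (3.17%), the C/EBP motif TTGCNNAA in 1, at Nr5a2 (9.56%), and the HNF4 motif CAAAGTCCA in 0 (0.384%). Both strands were searched, and none of these strings contains another. A match in these letters is a description of the sequence, and no binding was measured.

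Among 13 further genes of the members' families, Onecut3 had 0 reads, 4 were below the minimum and 8 were tested. Of the 8, 1 rose and 1 fell, against 11.4% of all tested genes called in either direction. Cebpd, a C/EBP factor of early adipogenesis and acute-phase signalling, fell from 4178 and 3805 normalized counts in the controls to 3422 and 3460.3 in the Prox1 KO-labelled libraries (log2 fold change -0.21, adjusted p = 0.0091 from limma). Ddit3, which encodes the stress-induced C/EBP relative CHOP, rose from 6489 and 5807 to 6821 and 6911 (0.16, adjusted p = 0.0355), a call that was lost with quantile normalization. In both genes the groups did not overlap, as in 44.4% of all tested genes. The overlapping gene Spidr shares 12.7% of the windows of Cebpd. The median log2 fold change of the 8 was 0.03, against 0.00 (-0.0022) for all tested genes.

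Of 39 other liver transcription factors, all had reads, 35 were tested, 4 rose and 2 fell, a share of 17.1% against the background of 11.4%, with a median log2 fold change of 0.03. Higher in the Prox1 KO-labelled libraries were the fatty acid receptor Ppard (log2 fold change 0.20, adjusted p = 0.0077 from limma), the circadian repressor Nr1d1 (0.22, adjusted p = 0.0120), the glucocorticoid receptor Nr3c1 (0.20, adjusted p = 0.0123) and the thyroid hormone receptor Thrb (0.27, adjusted p = 0.0382). Lower were the circadian activator Dbp (-0.36, adjusted p = 0.0141) and the nuclear factor I gene Nfib (-0.19, adjusted p = 0.0244). The groups did not overlap for any of the 6, as for 44.4% of all tested genes. Dbp shares 25.4% of its windows with Sphk2 and Nr1d1 6.48% with Thra.

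The 17 partner genes of PROX1, mostly subunits of NuRD and other deacetylase complexes, were all tested, and 1 rose and 1 fell, a share of 11.8% close to the background. Gatad2b, a NuRD scaffold subunit, rose (log2 fold change 0.15, limma adjusted p = 0.0461), and the histone-binding subunit Rbbp7 fell (-0.14, limma adjusted p = 0.0298). The call of Gatad2b was lost with TMM and with quantile normalization, which called 1 gene of this list each. The median of the list was 0.02.

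Bile acid genes downstream of the nuclear receptors were mostly silent. Of 17 genes, Cyp7a1, the rate-limiting enzyme of bile acid synthesis, and the uptake transporter Slco1b2 had 0 reads, 8 were below the minimum and 7 were tested, of which 3 fell and 0 rose, against 6.29% of all tested genes that fell and 5.09% that rose. Fgfr4, the receptor for the intestinal bile acid signal FGF15, fell from 149.6 and 177 normalized counts in the controls to 82.1 and 97.7 (log2 fold change -0.85, adjusted p = 0.0031 from limma). Cyp7b1, an enzyme of the alternative synthesis route, fell from 638 and 766 to 415 and 525 (-0.58, adjusted p = 0.000267), and the canalicular exporter Abcc2 from 185 and 233 to 128 and 162 (-0.52, adjusted p = 0.0245), the latter call being lost with quantile normalization. For these genes the groups did not overlap, as for 44.4% of all tested genes, and both pairs had the same direction. The median over the 7 tested genes was 0.06, opposite in sign to the 3 calls.

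Liver genes known as targets of C/EBP and FOXA factors held the largest changes of the 5 gene lists examined. Of 20 genes, Otc had 0 reads, 5 were below the minimum and 14 were tested, of which 7 fell and 0 rose, against 6.29% of all tested genes that fell. Trf (transferrin) fell from 2055 and 1829 normalized counts in the controls to 700.4 and 878 in the Prox1 KO-labelled libraries (log2 fold change -1.30, adjusted p = 2.86e-07 from limma). Serpina1a (alpha-1-antitrypsin) fell from 776 and 1886 to 545 and 724 (-0.94, adjusted p = 0.00024), and Fgb (fibrinogen beta chain) from 288 and 308 to 123 and 195 (-0.94, adjusted p = 0.000609). Ttr (transthyretin) fell from 216 and 287 to 136 and 129 (-0.90, adjusted p = 0.00105). Saa3, an acute-phase gene, fell within both pairs, from 177 to 105 and from 680.2 to 392, although its groups overlapped (-0.77, adjusted p = 0.000442). Afp (alpha-fetoprotein) fell by less, from 12115 and 9839 to 9555 and 9157 (-0.22, adjusted p = 0.0082). The median of the 14 was -0.48. The log2 fold change was 0.02 for Cebpa and 0.16 for Cebpb, while Foxa1 and Foxa2 had too few reads for one. Any link between the changes of these genes and the levels of the factors was not tested. Of the windows of Trf, 77.3% also occur in the overlapping gene Gm20425, and 49.9% of those of Serpina1a occur in its paralogs, so their reads are uncertain.

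**Figure D4:**
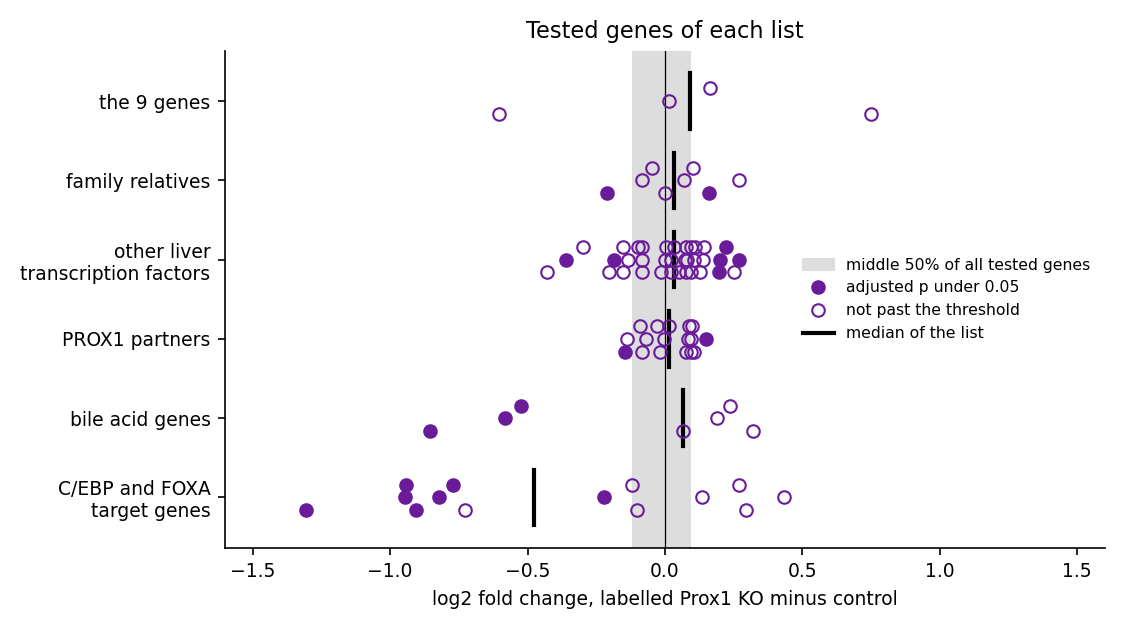
Log2 fold changes of all tested genes in each list (1 circle per gene, filled where the adjusted p from limma is under 0.05, black bar at the list's median), with the middle 50% of all tested genes in grey. The 4 tested members are open circles, the 14 C/EBP and FOXA target genes spread to -1.30 with 7 filled, and the relatives, the other factors and the PROX1 partners have medians within the grey band, with single factors out to -0.43 (Mlxipl, not past the threshold) and -0.36 (Dbp).

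These list calls depended on the test. Over the 5 lists, 20 genes were called, 6 of them higher and 14 lower, and all 20 had the same direction in both pairs. The DESeq2 Wald test with the same block called 5 of the 20, Cyp7b1, Fgb, Saa3, Trf and Ttr, and limma without the block called 0. None of the transcription factor genes and none of the PROX1 partners was called by DESeq2.

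Markers of cell types were also examined. All 8 hepatocyte markers are also in the list of C/EBP and FOXA targets, so they are not a separate result. Of the 7 tested, 4 fell, where 6.29% of all tested genes did. The summed level of the 8 hepatocyte markers was 14560.1 and 15634 normalized counts in the Prox1 KO-labelled libraries and 19139.6 and 17822 in the controls. Afp made up most of each sum (9555 and 9157, and 12115 and 9839), so the sum does not describe the other hepatocyte markers. Among these, Alb, Fga and Hp did not pass. Of the 6 cholangiocyte markers 2 fell, Epcam and Krt19. The sum of the 6, 86600 and 111682 in the Prox1 KO-labelled libraries and 89928 and 127949 in the controls, was mostly Spp1 (81073 and 106099, and 83445 and 120511), which did not pass, and so does not describe Epcam and Krt19. The fibroblast markers had the highest sum, 523318 to 639011 and 530595 to 655856. It was mostly Col1a1 and Col1a2, which did not pass, and so does not describe the 3 of 8 that were lower. These were Pdgfra, Dcn and Lum, and the groups of Dcn overlapped. The part of these shifts in the results of the lists was not tested.

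**Figure D5:**
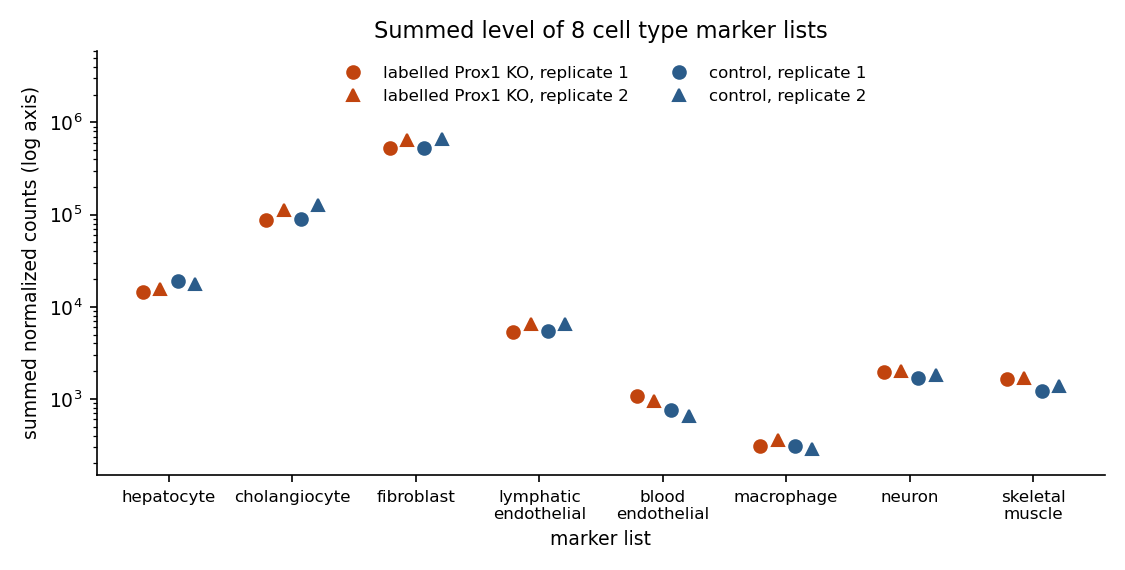
Summed normalized counts (log axis) of the 8 marker lists in each library, colours and symbols by group and replicate. The hepatocyte sums, mostly Afp, of the Prox1 KO-labelled libraries (14560.1 and 15634) lie below those of the controls (19139.6 and 17822). The blood endothelial sums of the Prox1 KO-labelled libraries, mostly Kdr, lie above those of the controls. The fibroblast sums, mostly Col1a1 and Col1a2, are the highest in every library.

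Lymphatic endothelial cells and neurons, among the cell types outside the liver known to express Prox1, had marker lists, and both lists were incomplete. Of the lymphatic endothelial markers Ccl21a had 0 reads, Sox18 was below the minimum, and of the 4 tested only Flt4, which encodes a receptor for lymphatic growth factors, rose. The sum was 5351 and 6573 normalized counts in the Prox1 KO-labelled libraries and 5489.7 and 6497 in the controls, so the groups overlapped. Among 6 blood endothelial markers Cldn5 had 0 reads, Pecam1 and Cdh5 were below the minimum, and of the 3 tested Kdr rose. Tek (log2 fold change -0.11) and Emcn (0.95) did not pass. The value of Emcn rests on 4 and 17 reads in the Prox1 KO-labelled libraries and 0 and 22 in the controls. Its pairs had opposite signs (2.37 and -0.47). The sum of the blood endothelial markers, 1067 and 949 against 751 and 646, was mostly Kdr (938 and 770.3 against 564 and 509). It is therefore the level of 1 gene rather than of the list. None of the 3 tested macrophage markers passed, with Adgre1 at 0 reads and sums of 309 to 359.7 and 289.5 to 307. Of the neuronal markers Rbfox3 and Dcx were below the minimum and Stmn2 rose, 1 of 4 tested. The groups of Stmn2 overlapped, with 656 and 833 normalized counts in the Prox1 KO-labelled libraries and 491 and 759 in the controls. The neuronal sums were 1948 to 1990.2 and 1706 to 1838. Of the 6 skeletal muscle markers Myod1, Myog, Myh3 and Ckm were below the minimum, with 0 to 2 reads a library. Des rose and made up most of the muscle sum, 1553 and 1560.1 of 1663 and 1675 in the Prox1 KO-labelled libraries and 1125 and 1311 of 1216 and 1384 in the controls. All calls of these markers are from limma with the block, in which 5.09% of all tested genes rose. Without the block 0 genes passed. The named marker genes were chosen after their values were seen, and the part of these markers in the Prox1 level was not tested.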

How the data were processed

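Bulk RNA-seq of MEFs at day 14 was analysed in 4 libraries, 2 per group, grouped and numbered by the labels. Paired-end sequencing gave reads of 100 bases, which STAR aligned to mm10. The authors deposited normalized counts, a signal per gene equal to read counts divided by the DESeq2 size factor of the library. The counting tool and its strand setting are not given in the sources used here. A second deposited table, with the authors' fold changes and p-values, was not used. Reads were recovered as multiples of the smallest positive value, and 100% of positive values were whole within 0.01. Total reads were 42941156 and 46013581 in the Prox1 KO-labelled libraries and 48524008 and 42469031 in the controls. Intervals cover the counting error of reads only. No molecular identifiers were used, so copies of the same molecule cannot be told from separate molecules, and the intervals may be too narrow.

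Genes averaging 10 or more normalized counts were tested with limma 3.58.1 in R 4.3.3 on log2(normalized counts + 1), with an intensity trend, the replicate number as a block, as the study's methods use the MEF line as covariate, and an adjusted p threshold of 0.05. Libraries with the same number deviated together from their group means (correlation 0.402 over 15809 genes, which are not independent), though the labels do not say what the number stands for. Same-group libraries differed in 33.6% (Prox1 KO-labelled) and 34.6% (controls) of genes by a chi-square test at an unadjusted p under 0.05, so none was counted as a duplicate. Interval limits within pairs are exact binomial, at 95%. RPKM used exonic lengths of GENCODE vM21 (GRCm38), which matched 55137 of the 55397 identifiers (99.5%). Windows of 100 bases of the longest transcripts were matched to all transcripts in both orientations. The limma, edgeR and DESeq2 fits were also run on simulated counts as a check of the code. There, 200 genes were changed by 1 on the log2 scale, with a common dispersion and a replicate effect shared by the pairs. These settings are simpler than the data, so the run says nothing about the calls reported here.

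Alternatives were no replicate block, pseudocounts of 0.1 and 10, no filter, a minimum of 50, TMM and quantile normalization, edgeR 4.0.16, DESeq2 1.42.0 and single pairs. The members and lists were chosen with earlier results of these data known. Named were all members, genes overlapping them, the 3 nearest to Prox1, and per pathway list every called gene, up to 6 by adjusted p. 0 per-sample columns were left unused. Items not reported here include the factors carried by 4in1.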

Additional observations from a re-analysis of the deposited data

How the results depend on the processing

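None of the members passed under any of the 9 other settings. Without the replicate block 0 of the 15809 genes passed, with 1783 at an unadjusted p under 0.05, and DESeq2 called 471 (212 higher, 259 lower), against 1798 with the block in limma. The other settings called between 1246 (quantile normalization) and 2091 genes (no filter). The log2 fold change of Prox1 ranged from 0.62 to 0.83 with adjusted p from 0.0527 (no filter) to 0.817 (DESeq2), and single pairs gave 0.26 without replicate 2 and 1.24 without replicate 1, with no test. Cebpb ranged from 0.16 to 0.17 (adjusted p 0.0609 to 0.666), Cebpa from 0.01 to 0.05 (0.795 to 1.00) and Nr1h4 from -0.63 to -0.50 (0.189 to 0.970), the last not tested at a minimum of 50. Single pairs of Nr1h4 gave -0.98 and -0.23. None of the 4 tested members changed direction in these settings or single pairs. Over the 5 lists, 20 calls became 16 with quantile normalization (without Abcc2, Agt, Ddit3 and Gatad2b), 19 with TMM and 21 with no filter, which added Tbx3. Counts of calls without 1 replicate have no test. Depth limits Prox1 and Nr1h4 (24 to 70 reads a library), and Foxa1 and Foxa2 (0 to 5 reads a library) had too few reads for a direction.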
